A study of Homo sapiens with 24 samples.

Results

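The measurement was the difference of the dexamethasone effect between MM1S and MM1R human myeloma cells, that is the change of MM1S cells with dexamethasone (Dex) minus the change of MM1R cells with Dex, gene by gene. MM1S is a myeloma cell line that is sensitive to glucocorticoids (GCs), and MM1R, its resistant counterpart, grew out of MM1S cells kept in Dex for long, so the comparison is between 1 sensitive line and 1 resistant subclone of it. Cells of each line were left untreated or received 1 µM Dex for 72 h, with 3 arrays in each of the 4 groups, and the study's methods describe them as independent experiments. These 12 of the 24 arrays of the series were used. Illumina bead arrays gave a log2 signal for 47224 probes. Probes over background (detection p-value under 0.05) in at least 3 of the 12 arrays were tested, which left 21486 probes and 11559 of the 20045 genes on the array. A positive difference means that a gene changed more upwards, or less downwards, with Dex in MM1S than in MM1R cells. All differences and changes below are on the log2 scale and are given ± SE from 1 limma fit over the 4 groups (n = 3 arrays per group), with p values adjusted over all 21486 probes.

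GCs enter the cell and bind the GC receptor (GR, gene NR3C1), which is held by chaperones in the cytosol and moves to the nucleus once it has bound the hormone. There it binds DNA and raises genes such as FKBP5 and TSC22D3 (GILZ), and it also lowers genes, in part by meeting other transcription factors. In lymphoid cells GCs are known for arrest of the cell cycle and for cell death, and Dex is a standard drug in myeloma, the cancer of plasma cells.

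Between 17059 and 19647 probes were over background in the 12 arrays. All 10 plasma cell markers that were checked, among them SDC1 (CD138), TNFRSF17 (BCMA) and XBP1, were over background in all 12 arrays. Of 11 measured markers of other cell types, CD3D, CD3E, NKG7, LYZ and PAX5 were over background in no array, and HBB and PECAM1 were over background in all 12. The summed signal of the plasma cell markers was 49587 to 56023 in untreated and 46651 to 49822 in Dex-treated MM1S cells, against 59553 to 60054 and 59030 to 59821 in MM1R cells. That of the other markers was 1996 to 2192 and 1725 to 1818 in MM1S cells and 2233 to 2452 and 2242 to 2370 in MM1R cells. The part of these shifts in the results below was not tested.

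The receptor gene itself differed in level between the lines, and its response in MM1R cells was not measured. NR3C1 read 7.92, 7.98 and 8.07 in the untreated and 7.76, 7.80 and 7.91 in the Dex-treated MM1S arrays, and 6.95, 7.01 and 6.91 and 7.06, 6.91 and 7.10 in the MM1R arrays. It was over background in all 6 MM1S arrays and in none of the 6 MM1R arrays. The difference of the Dex effect was -0.23 ± 0.12 (adjusted p = 0.203), which sets the MM1S change against MM1R signals below background. Another probe of the gene, with a low mean signal of 7.11, gave 0.01. NR3C2, the mineralocorticoid receptor, which also binds GCs, was over background in all 12 arrays, and its difference was -0.13 ± 0.12 (adjusted p = 0.538).

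The effect of Dex differed between the lines for 3.39% of the genes tested, at an adjusted p under 0.05 and a difference of more than 2-fold in at least 1 probe. It was more positive in MM1S cells for 130 genes (1.12% of the genes tested) and more negative for 262 genes (2.27%). The share of positive calls, 33.2% here, was 46.6% when each array was centred on its median and 44.3% after a background correction. In the same fit 121 genes rose (1.05%) and 224 fell (1.94%, together 2.98%) in MM1S cells alone. In MM1R cells no gene passed, while 957 of the 21486 probes had an unadjusted p under 0.05, and the lowest adjusted p was 0.928. The MM1S arm shares its arrays with the difference, so both are given side by side and not as separate evidence.

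**Figure D1:**
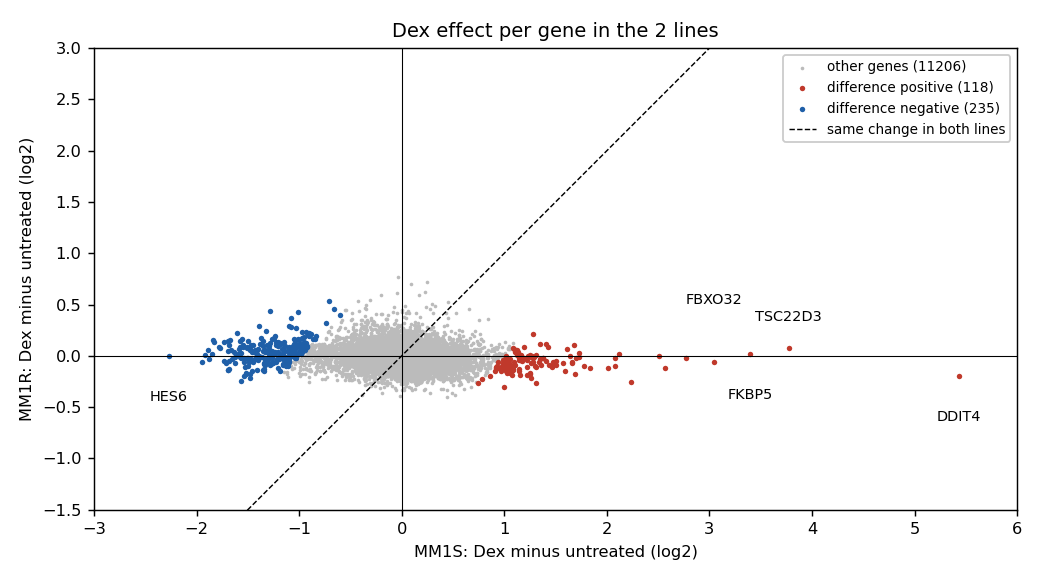
Change with Dex (log2, Dex minus untreated) in MM1S cells on the x axis and in MM1R cells on the y axis, 1 point for each of the 11559 genes at its probe with the highest mean signal. Genes past both thresholds on that probe are coloured (118 positive, 235 negative) and lie along the horizontal line, between -0.30 and 0.53 in MM1R cells.

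Each gene is described below by its brightest probe on average, and on that probe 118 genes were past both thresholds in the positive and 235 in the negative direction. The 118 had a median change of 1.22 in MM1S and -0.07 in MM1R cells, and the 235 had -1.25 and 0.04. In MM1R cells the 95% confidence interval of the change lay within ±1 for all 353 genes and within ±0.5 for 329 of them. Over all 11559 genes tested these counts were 11548 and 11241. For those of the 353 that were over background in MM1R cells, a 2-fold change of signal lies outside the intervals, whereas a small one does not. For 4 of the 353, BCL6 among them, all 6 MM1R arrays lay below background, so that their change there was not measured. The intervals are those of signals without a background correction. The MM1R groups did not overlap for 19 of the 353 genes and for 832 of all 11559.

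The 3 largest positive differences were those of GR targets. DDIT4 (REDD1), an inhibitor of the mTOR complex, read 8.07, 8.01 and 8.01 in untreated and 13.45, 13.49 and 13.44 in Dex-treated MM1S cells. In MM1R cells it read 9.94, 9.72 and 9.72 without and 9.78, 9.61 and 9.39 with Dex. The MM1S arrays with Dex lay above all 9 others, and the untreated MM1R arrays lay above the untreated MM1S arrays. The difference was 5.63 ± 0.15 (adjusted p = 1.97e-15). TSC22D3 (GILZ), which encodes a GC-induced leucine zipper protein that restrains inflammatory signalling, read 8.91, 9.01 and 8.87 and 12.90, 12.81 and 12.40 in MM1S cells. Its values in MM1R cells were 11.35, 11.08 and 11.06 and 11.46, 11.35 and 10.91, so that the MM1R arrays lay between the MM1S groups under both conditions. The difference was 3.70 ± 0.20 (adjusted p = 3.41e-10). FKBP5, a co-chaperone that dampens the GR, read 9.77, 9.75 and 10.22 and 13.41, 13.37 and 13.16 in MM1S cells against 9.70, 10.06 and 9.69 and 9.72, 10.05 and 9.73 in MM1R cells. Here the 3 groups other than Dex-treated MM1S cells overlapped, and the difference was 3.38 ± 0.19 (adjusted p = 6.96e-10).

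**Figure D2:**
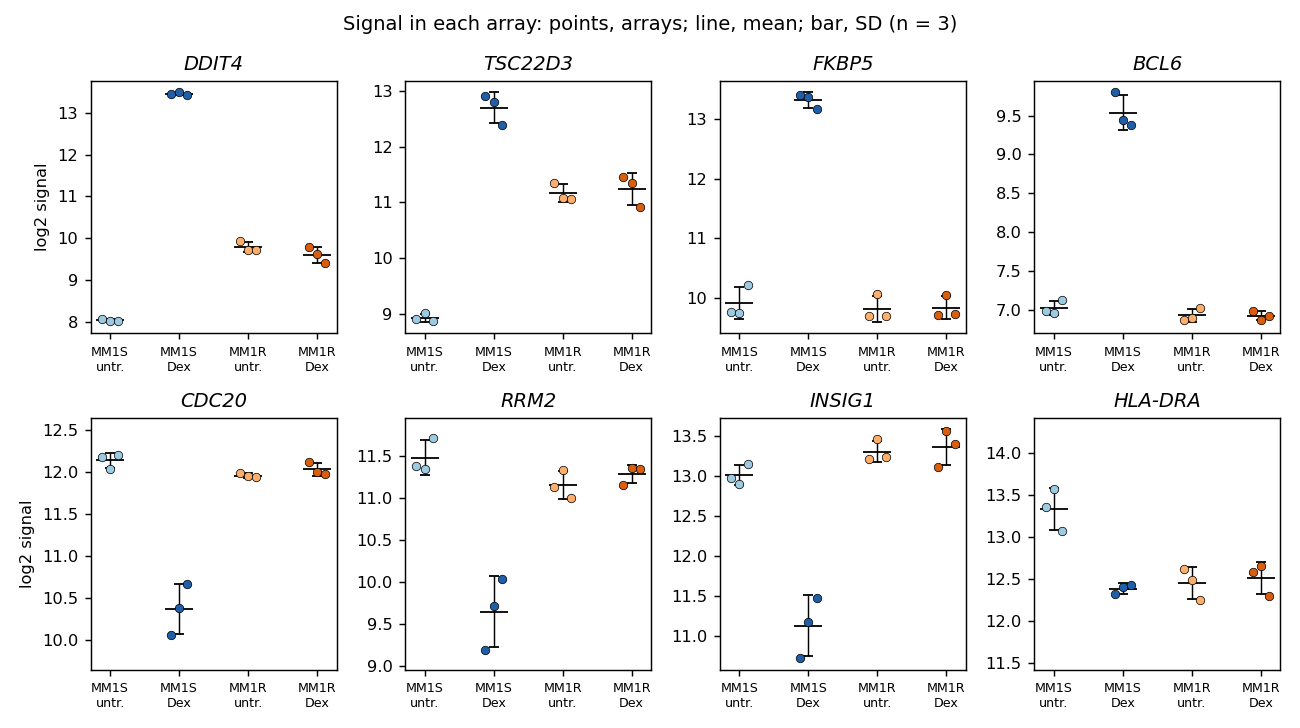
Log2 signal of 8 genes (y axes, each panel at least 3 log2 units high) in the 12 arrays, by line and treatment on the x axes. Points are arrays, lines are means and bars are SD (n = 3). Dex-treated MM1S arrays stand apart from untreated ones in each panel, while in the HLA-DRA panel MM1R arrays lie near the Dex-treated MM1S arrays.

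Of 26 tested genes on a list of GR targets, 15 had a positive difference at an adjusted p under 0.05 and none a negative one, where the background was 8.64% positive and 8.82% negative of all genes. The median difference over the list was 0.80, against 0.01 over all genes tested. The shares of 8.64% and 8.82% are the background for the counts of differences in every list below. All lists were chosen with earlier results of these data known, so their counts describe the genes and are not separate evidence. BCL6, a transcription repressor of germinal centre B cells, was below background in all 3 untreated MM1S arrays and in all 6 MM1R arrays, and read 9.80, 9.44 and 9.37 with Dex in MM1S cells. Its rise in MM1S cells was at least 5.20-fold, taken against the lowest signal over background, and the difference was 2.52 ± 0.14 (adjusted p = 6.09e-10). BCL6 passed the filter on probes through the Dex-treated MM1S arrays alone. Its SE and adjusted p thus set these arrays against signals below background. LY86, which encodes MD-1, the partner of the B-cell receptor RP105, read 7.54, 7.98 and 7.98 and 10.37, 10.21 and 10.63 in MM1S cells and 8.66, 8.48 and 8.22 and 8.66, 8.54 and 7.81 in MM1R cells. Its difference was 2.69 ± 0.25 (adjusted p = 6.12e-07). KLF9, a GC-responsive transcription factor, differed by 1.71, ZBTB16 (PLZF), a zinc finger repressor, by 1.22, and TNFAIP3 (A20), an inhibitor of NF-kB, by 0.98 ± 0.17. DUSP1, a phosphatase of MAP kinases, differed by 1.42 ± 0.38 (adjusted p = 0.0143) but scattered among arrays, with 9.20, 9.26 and 8.54 in untreated and 10.87, 10.74 and 9.32 in Dex-treated MM1S cells. Without MM1S untreated replicate 3 its adjusted p was 0.0540, and without MM1S Dex replicate 2 it was 0.0521. Members that did not pass include SGK1, a kinase, at 0.02, BCL2L11 (BIM), a killer protein of the BCL2 family, at -0.33, and NFKBIA, the inhibitor of NF-kB, at 0.48.

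Genes that were not on a list of GR targets stood among the largest positive differences as well. ZC3H12A (Regnase-1), an RNase that degrades inflammatory mRNAs, read 7.88, 8.01 and 8.08 and 10.88, 10.98 and 10.41 in MM1S cells and 8.34, 8.30 and 7.98 and 8.39, 8.31 and 7.84 in MM1R cells, with a difference of 2.79 ± 0.21 (adjusted p = 4.53e-08). P4HA1, a subunit of the enzyme that hydroxylates proline in collagen, differed by 2.49 ± 0.23 (adjusted p = 4.23e-07). TGFBR2, a receptor of TGF-beta, differed by 2.13 ± 0.18 (adjusted p = 1.53e-07). CXCL13, the chemokine that draws B cells into follicles, was below background in all untreated MM1S arrays and over background in 1 of 6 MM1R arrays. It read 9.55, 9.25 and 8.65 in Dex-treated MM1S cells, a rise of at least 3.98-fold, and the difference was 2.18 ± 0.20 (adjusted p = 4.35e-07). CXCL13 would not have passed the filter on probes without the Dex-treated MM1S arrays. CXCR4, the receptor that holds plasma cells in the bone marrow, read 9.77, 9.90 and 10.08 and 11.98, 11.99 and 12.03 in MM1S cells and 9.81, 9.63 and 9.21 and 9.22, 9.81 and 9.55 in MM1R cells. Both MM1R groups and the untreated MM1S group overlapped, and the difference was 2.10 ± 0.21 (adjusted p = 1.11e-06).

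For the GR, its chaperones and its coregulators the counts lay near the shares over all genes. Of 18 tested members 1 was positive and 2 were negative, against 8.64% and 8.82% of all genes, with a median of 0.02. FKBP4, the co-chaperone that favours GR transport, differed by -0.67 ± 0.17 (adjusted p = 0.0110), and HSP90AA1, the inducible HSP90, was the other negative member, close to the threshold. CREBBP, a histone acetyltransferase and coactivator, differed by 0.62 ± 0.15 (adjusted p = 0.00740), but its other probe, with a low mean signal of 7.16, gave -0.01. The FKBP4 call was lost in a fit of all 24 arrays (adjusted p = 0.0805). That fit leaves each difference as it was and takes the SE from the spread of the transfection arrays too. For FKBP4 the SE was 0.25 there, against 0.17. ABCB1, the drug efflux pump that can export Dex, differed by 0.23, which did not pass.

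Inhibitors of PI3K and mTOR signalling and targets of FOXO transcription factors differed in the positive direction only. Of 19 tested genes 10 passed in the positive and none in the negative direction, with a median difference of 0.50. IRS2, TXNIP, SESN1 and DDIT4 are also on the list of GR targets, so the lists share members. FBXO32 (atrogin-1), a ubiquitin ligase of the FOXO programme, read 8.93, 8.89 and 8.64 and 11.91, 11.79 and 11.90 in MM1S cells and 8.38, 8.28 and 8.66 and 8.43, 8.30 and 8.43 in MM1R cells. Its difference was 3.10 ± 0.16 (adjusted p = 1.54e-10). PIK3IP1, an inhibitor of the PI3K catalytic subunit, read 8.88, 8.88 and 8.89 and 11.14, 10.83 and 11.03 in MM1S cells and 8.44, 8.68 and 8.76 and 8.60, 8.66 and 8.68 in MM1R cells, a difference of 2.10 ± 0.15 (adjusted p = 2.29e-08). SESN1 (sestrin), which restrains mTOR upon stress, differed by 1.52 ± 0.18 (adjusted p = 8.38e-06). DEPTOR, a subunit of mTOR complexes that inhibits them and is high in many myelomas, differed by 0.85, and KLHL24 by 1.18. TRIM63 (MuRF1), often named with FBXO32 in muscle, differed by 0.01, and FOXO1 and FOXO3 by 0.04 and 0.01.

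Of 20 tested pro-apoptotic genes 2 were positive, which is near the 8.64% over all genes, and none was negative, with a list median of -0.07. BMF, a BH3-only killer protein, read 8.10, 8.33 and 8.38 and 9.82, 9.92 and 9.80 in MM1S cells and 8.78, 8.60 and 8.41 and 8.52, 8.57 and 8.48 in MM1R cells, a difference of 1.65 ± 0.15 (adjusted p = 5.04e-07). CASP6, an executioner caspase, differed by 0.50 ± 0.13 (adjusted p = 0.0127), a call that was lost in a fit of all 24 arrays (adjusted p = 0.315). Of its other probes 1 passed (0.75, adjusted p = 5.41e-04) and 1 did not (0.41, adjusted p = 0.0825). FAS, BAX, BID and the BH3-only genes BBC3 (PUMA) and PMAIP1 (NOXA) differed by -0.13, -0.10, -0.12, -0.12 and 0.08, and none of them passed. Of 9 tested anti-apoptotic genes, MCL1 and BCL2, which both guard mitochondria, were positive at 0.75 ± 0.18 and 0.75 ± 0.20, with an adjusted p of 0.00624 and 0.0134. None was negative, and BCL2L1 at -0.57 and BAG3 at -0.44 did not pass (adjusted p = 0.0857 and 0.0554). In MM1S cells alone 4 members of this list rose and 2 fell at an adjusted p under 0.05. The other probe of MCL1 gave -0.25 (adjusted p = 0.502). Of the other probes of BCL2 the brighter passed at 0.81 (adjusted p = 0.00140) and the dimmer gave -0.19 (adjusted p = 0.506), and in a fit of all 24 arrays the BCL2 call was lost (adjusted p = 0.0711).

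The most uniform negative differences were those of mitosis. All 44 tested genes of spindle, kinetochore and mitotic kinases were negative at an adjusted p under 0.05, 36 of them by more than 2-fold, with a median difference of -1.46. Their median change was -1.47 in MM1S and 0.02 in MM1R cells, where single members lay between -0.22 and 0.17. In RNA of whole cultures, fewer dividing cells and less mitotic mRNA per cell cannot be told apart. HMMR, a spindle protein, read 10.97, 11.01 and 10.77 and 8.86, 9.18 and 9.20 in MM1S cells and 10.69, 10.60 and 10.61 and 10.86, 10.66 and 10.84 in MM1R cells, and its difference was -1.99 ± 0.16 (adjusted p = 6.09e-08). CDC20, the activator of the anaphase-promoting complex, read 12.18, 12.03 and 12.20 and 10.06, 10.37 and 10.66 in MM1S cells and 11.98, 11.95 and 11.93 and 12.11, 11.99 and 11.98 in MM1R cells. Only the Dex-treated MM1S arrays were low, and the difference was -1.84 ± 0.17 (adjusted p = 3.81e-07). The mitotic kinases PBK and MELK differed by -1.92 ± 0.20 and -1.86 ± 0.16. BIRC5 (survivin), which acts in chromosome passage as well as in cell survival, differed by -1.84 ± 0.16 (adjusted p = 2.51e-07). CCNB2, a cyclin of CDK1, read 11.13, 11.10 and 11.29 and 9.32, 9.52 and 9.62 in MM1S cells and 11.12, 10.98 and 10.998 and 11.21, 11.09 and 11.11 in MM1R cells, a difference of -1.79 ± 0.15 (adjusted p = 1.02e-07). The smallest difference of the list was that of BUB3, a checkpoint protein, at -0.44.

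Stretches of 30 bases around the start sites show what many of the mitotic promoters have in common. Those shown were picked from promoters that hold the letters marked below, which not every mitotic promoter does. Promoters were read from RefSeq on GRCh38.p14 as 250 bases before to 50 after the gene start, and both strands were searched. In the stretches below the capitals mark TTTGAA or TTCGAA, the cell cycle genes homology region (CHR) that repressor complexes of resting cells are known to bind, at -29, -65, -29, -18 and 1 from the gene start. They lie at chr15:59105105-59105134 (+), chr1:43358904-43358933 (+), chr16:23678848-23678877 (+), chr2:26786026-26786055 (+) and chr2:110678045-110678074 (-).
CCNB2: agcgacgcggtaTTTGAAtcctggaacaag
CDC20: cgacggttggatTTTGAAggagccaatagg
PLK1: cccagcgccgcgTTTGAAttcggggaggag
CENPA: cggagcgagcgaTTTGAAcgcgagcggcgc
BUB1: ctgcgcggggtaTTCGAAtcggcggcggct

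TTTGAA was present in 26 of 36 mitosis promoters with a sequence (72.2%), against 951 of 9274 promoters of all genes tested (10.3%) and 15.4% of all 27305 promoters. CCAAT, the box bound by NF-Y, was present in 27 of the 36 (75%), against 37.3% of the genes tested and 35.7% of all promoters. Over all genes with a negative difference of more than 2-fold, 69 of 216 promoters held either form of the CHR (31.9%), and over those with a positive one 16 of 108 (14.8%), where the share was 11.9% of the genes tested and 16.6% of all promoters. The full GR element, AGAACA and TGTTCT with 3 bases between them, was found in 0 of the 108 and 0 of the 216 promoters, and in 1 of all 27305 (0.00366%). AGAACA by itself was found in 13 of the 108 (12%) and 13 of the 216 (6.02%), against 9.4% of the genes tested and 14.9% of all promoters. These are counts of letters in a short window, and GR sites far from a start are not covered by them.

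Genes of DNA replication differed in the negative direction only. Of 41 tested members 37 were negative at an adjusted p under 0.05, 24 by more than 2-fold, and none was positive. The median change was -0.93 in MM1S and 0.06 in MM1R cells. MCM4, a subunit of the replicative helicase, read 11.63, 11.49 and 11.88 and 9.79, 10.07 and 10.31 in MM1S cells and 11.24, 11.46 and 11.22 and 11.72, 11.43 and 11.42 in MM1R cells, a difference of -1.83 ± 0.19 (adjusted p = 1.43e-06). CDC45 and GINS2, which complete the active helicase, differed by -1.74 ± 0.17 and -1.60 ± 0.19. MCM10, which helps the helicase to start, differed by -1.47 ± 0.15 (adjusted p = 1.61e-06). The members that did not pass were CLSPN, POLE, PRIM2 and ORC6, between -0.20 and -0.08. The enzymes that make DNA building blocks went the same way in part, with 12 of 24 nucleotide and folate genes negative and none positive. RRM2 and RRM1, the subunits of ribonucleotide reductase, differed by -1.97 ± 0.22 and -1.49 ± 0.14. RRM2 read 11.38, 11.36 and 11.72 and 9.20, 9.72 and 10.04 in MM1S cells and 11.13, 11.34 and 11.01 and 11.17, 11.36 and 11.35 in MM1R cells. TYMS, which makes thymidylate, differed by -1.46 ± 0.18 (adjusted p = 1.27e-05), and GGH, which trims folate chains, by -1.27 ± 0.16 (adjusted p = 1.26e-05). Among the genes of purine synthesis GMPS passed at -0.65 (adjusted p = 0.0133), while ADSL (-0.40), PAICS (-0.31), IMPDH1 (-0.22), PPAT (-0.21), ATIC (0.00043), GART (0.12) and IMPDH2 (0.33) did not.

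The replication promoters shared the CCAAT box with the mitotic ones, in 21 of 34 (61.8%), and differed from them in the share with E2F sites. E2F sites are shown for 1 gene each of the lists of DNA replication (GINS2), nucleotide synthesis (TYMS) and S phase entry (E2F2). These genes were picked from those with a match. The capitals below mark TTTCCCGC (in GINS2 and TYMS, read on the strand opposite to the gene) and TTTGGCGC (in E2F2), at -31, -39 and -42 from the gene start. They lie at chr16:85688967-85688996 (+), chr18:657603-657632 (-) and chr1:23531257-23531286 (-).
GINS2: gcggccgccgtTTTCCCGCcacggcgagag
TYMS: tccgcgcgcctTTTCCCGCggccgtcccgc
E2F2: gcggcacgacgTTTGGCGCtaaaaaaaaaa

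Either E2F form was present in 14 of 34 replication promoters (41.2%) and in 2 of 36 mitosis promoters (5.56%), against 3.64% of the genes tested and 2.31% of all promoters. TTTGAA in turn was present in 0 of the 34 replication promoters.

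DNA repair genes were negative in 15 of 19 cases, with a median difference of -0.91. CHEK1, a checkpoint kinase, differed by -1.55 ± 0.16 (adjusted p = 1.41e-06), EXO1, an exonuclease, by -1.55 ± 0.17 (adjusted p = 3.91e-06), FANCI, of the Fanconi anaemia pathway, by -1.48 ± 0.16 (adjusted p = 2.54e-06), and POLQ, a polymerase of end joining, by -1.28 ± 0.16 (adjusted p = 1.26e-05). ATM, the kinase that senses double strand breaks, was the 1 positive member, close to the threshold.

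Genes that govern the entry into S phase were split. Of 21 tested G1 cyclins, kinases and inhibitors 9 were negative and 2 positive. E2F2, a transcription factor of S phase genes, read 12.17, 12.10 and 12.43 and 10.62, 10.98 and 11.30 in MM1S cells and 12.15, 12.11 and 12.06 and 12.27, 12.06 and 11.97 in MM1R cells, a difference of -1.26 ± 0.19 (adjusted p = 1.10e-04). CCNE1 (cyclin E), at -1.11 ± 0.16, SKP2, the ubiquitin ligase subunit that removes cell cycle inhibitors, at -0.92 ± 0.14, and CDK2 at -1.03 were also negative, although another probe of CCNE1 did not pass (adjusted p = 0.329), and of the other probes of SKP2 1 passed (-1.04) and 1 did not (-0.46, adjusted p = 0.0537). CCND3 (cyclin D3) went the other way at 1.06 ± 0.17 (adjusted p = 1.94e-04), and RBL2 (p130), a pocket protein of resting cells, at 0.58 ± 0.15 (adjusted p = 0.0116). CDKN1A (p21) and CDKN1B (p27), inhibitors of CDKs, differed by -0.55 and 0.34 and did not pass.

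The synthesis of cholesterol and fatty acids showed 14 negative and no positive genes of 27 tested, with a median difference of -0.57. INSIG1, the sterol-induced anchor of SREBP in the endoplasmic reticulum (ER), read 12.97, 12.90 and 13.15 and 10.72, 11.17 and 11.48 in MM1S cells and 13.22, 13.46 and 13.24 and 13.12, 13.57 and 13.39 in MM1R cells. Its difference was -1.94 ± 0.21 (adjusted p = 2.41e-06). SCD, the desaturase of stearate, read 12.77, 12.76 and 12.78 and 10.26, 10.996 and 11.21 in MM1S cells and 13.10, 13.25 and 13.23 and 13.01, 13.21 and 13.18 in MM1R cells, and its difference was -1.89 ± 0.22 (adjusted p = 6.40e-06). SREBF1, the transcription factor of fatty acid genes, differed by -1.87 ± 0.23 (adjusted p = 1.27e-05), while SREBF2, its relative for cholesterol genes, differed by 0.03. HMGCS1, an early enzyme of the mevalonate pathway, differed by -1.11 ± 0.16 (adjusted p = 6.67e-05). For INSIG1, SCD and HMGCS1 all untreated MM1R arrays lay above all untreated MM1S arrays, and no MM1R array reached down to the Dex-treated MM1S arrays.

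Genes of the secretory pathway differed by less. Of 23 tested ER genes 11 were negative and none positive, none of them by more than 2-fold, and with median centring of the arrays 7 were negative. HSP90B1 (GRP94), the HSP90 of the ER, read 14.08, 13.995 and 14.01 and 13.35, 13.33 and 13.43 in MM1S cells and 13.95, 13.90 and 13.96 and 13.999, 13.90 and 14.01 in MM1R cells, a difference of -0.69 ± 0.10 (adjusted p = 8.55e-05). MANF, a secreted ER stress protein, differed by -0.89 ± 0.14, DNAJB11, an ER co-chaperone, by -0.80 ± 0.15, and P4HB, a disulfide isomerase, by -0.63 ± 0.13, the last of which was lost in a fit of all 24 arrays (adjusted p = 0.0779). XBP1, the transcription factor of the plasma cell ER, differed by -0.26 and HSPA5 (BiP), the main ER chaperone, by -0.48, and neither passed. Of 22 genes of the amino acid response, 5 were negative. PHGDH, which opens serine synthesis, read 11.10, 10.91 and 11.35 and 8.96, 9.29 and 9.77 in MM1S cells and 12.07, 11.63 and 11.68 and 12.24, 11.59 and 11.81 in MM1R cells. Its difference was -1.87 ± 0.26 (adjusted p = 3.98e-05), and that of PSAT1, the next enzyme, was -1.28 ± 0.22 (adjusted p = 4.09e-04). ATF3, a stress transcription factor, differed by -1.06 ± 0.24 and XPOT, which exports tRNA, by -0.77 ± 0.20. The calls of PHGDH, PSAT1, ATF3 and XPOT were lost in a fit of all 24 arrays, with an adjusted p of 0.0843, 0.341, 0.167 and 0.1004. Their differences were the same there and their SE larger, with 0.80 for PSAT1. Of 19 glycolysis genes, ENO2, LDHA, TPI1 and GAPDH were negative at -0.78 ± 0.16, -0.58 ± 0.12, -0.45 and -0.48 ± 0.12, and SLC2A3, a glucose transporter, was positive at 0.71 ± 0.15. Of the other probes of LDHA the brighter passed (-0.72, adjusted p = 0.00158) and the dimmer did not (-0.15, adjusted p = 0.399). The other probe of GAPDH did not pass (adjusted p = 0.116), and GAPDH was also lost with median centring (adjusted p = 0.144) and in a fit of all 24 arrays (0.0640).

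MHC class II genes, by which B cells and their progeny present antigen, fell in MM1S cells in 8 of 11 tested members at an adjusted p under 0.05, where 13.5% of all genes fell. The difference between the lines was negative in 6 and positive in 1 of the 11, and several of them stood lower in untreated MM1R than in untreated MM1S cells. HLA-DRA, the alpha chain of HLA-DR, read 13.37, 13.58 and 13.07 and 12.32, 12.41 and 12.44 in MM1S cells, and 12.63, 12.49 and 12.26 and 12.59, 12.66 and 12.30 in MM1R cells. The untreated MM1R arrays thus lay at the level of the Dex-treated MM1S arrays, and the difference was -1.01 ± 0.17 (adjusted p = 3.88e-04). HLA-DPA1 read 11.23, 11.11 and 10.88 and 9.74, 9.89 and 10.12 in MM1S and 10.13, 10.12 and 9.88 and 10.09, 10.01 and 9.79 in MM1R cells, a difference of -1.07 ± 0.18 (adjusted p = 2.25e-04). HLA-DMA, which loads peptides, differed by -1.16 ± 0.20 (adjusted p = 3.41e-04), and CD74, the chain that guards the groove, by -0.74 ± 0.17 (adjusted p = 0.00470). The calls of HLA-DPA1 and CD74 were lost in a fit of all 24 arrays (adjusted p = 0.131 and 0.165), and of the other probes of CD74 1 passed (-0.59) and 1 did not (-0.28, adjusted p = 0.450). HLA-DOB, which restrains HLA-DM, was the positive member, and of 14 MHC class I genes HLA-B alone passed, in the negative direction. Both were close to the threshold.

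Markers of B-cell stages and of plasma cells held members of both signs. Of 13 tested genes of the B-cell programme, BCL6, LY86 and BACH2, a repressor of plasma cell genes, were positive, and none was negative. BCL6 and LY86 are also on the list of GR targets and were counted there. BACH2 read 7.43, 7.54 and 7.57 and 9.11, 9.01 and 8.82 in MM1S and 7.76, 7.75 and 7.54 and 7.63, 7.71 and 7.42 in MM1R cells, a difference of 1.56 ± 0.15 (adjusted p = 5.58e-07), and of its other probes the brighter passed at 0.99 (adjusted p = 2.60e-05) and the dimmer gave -0.05 (adjusted p = 0.818). Of 17 plasma cell identity genes, CD38, an ectoenzyme and drug target in myeloma, at -0.95 ± 0.24, CCND2 (cyclin D2) at -0.62 ± 0.13 and JCHAIN, the joining chain of immunoglobulins, were negative. MAF, a transcription factor that is high in some myelomas, was positive at 1.09 ± 0.15 (adjusted p = 3.49e-05). PRDM1 (Blimp-1), IRF4 and SDC1 differed by 0.18, -0.27 and 0.10, which did not pass. CCND2 was lost with median centring (adjusted p = 0.05003), and CD38 in a fit of all 24 arrays (adjusted p = 0.0768). Among the 5 tested markers of other cell types PECAM1 (CD31), which plasma cells also carry, was negative at -1.02 ± 0.15 (adjusted p = 1.12e-04).

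Cytokine and chemokine genes moved in both directions. Of 11 chemokines and receptors CXCR4 was positive, and CXCR3, a receptor of interferon-induced chemokines, CCL3, which draws monocytes and feeds bone loss in myeloma, and CXCL10 were negative, with -0.96 ± 0.23 for CXCR3 and -0.96 ± 0.26 for CCL3. CCL3 read 14.44, 14.38 and 13.62 and 13.19, 13.62 and 12.69 in MM1S and 14.93, 14.85 and 14.96 and 14.96, 14.81 and 14.89 in MM1R cells, its adjusted p was 0.0159, and the call was lost in a fit of all 24 arrays (adjusted p = 0.430) and without MM1S untreated replicate 1 or 2 (0.0555 and 0.0512). Of 20 genes of cytokine signalling 4 were positive and none negative. IL6ST (gp130), the signalling chain of the IL-6 receptor, read 11.14, 11.10 and 10.75 and 12.60, 12.55 and 12.05 in MM1S and 10.92, 10.999 and 10.54 and 10.64, 10.83 and 10.82 in MM1R cells, a difference of 1.46 ± 0.21 (adjusted p = 5.05e-05), and of its other probes 1 passed (0.55, adjusted p = 0.0251) and 1 did not (0.60, adjusted p = 0.254). IL7R, a receptor of lymphoid progenitors, was below background in untreated MM1S cells and rose at least 1.90-fold, with a difference of 0.94 ± 0.13 (adjusted p = 3.35e-05). The SE and adjusted p of IL7R thus rest in part on signals below background. STAT3 and IL2RG, a transcription factor and a receptor chain of cytokine signalling, passed narrowly. Of 20 interferon-stimulated genes 4 were positive: the RNase ISG20 at 1.11 ± 0.17, IFI44 at 1.08 ± 0.17, IRF9, a subunit of the interferon-activated factor, at 1.01 ± 0.19, and XAF1, an antagonist of XIAP, at 0.50 ± 0.13, whose other probe did not pass (0.15, adjusted p = 0.363). Canonical members such as MX1, IFIT1 and ISG15 lay at -0.23, -0.59 and 0.33 and did not pass.

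The remaining lists held between 1 and 5 members past the threshold, where 8.64% of all genes tested were positive and 8.82% negative. For most of these lists the counts lay near those shares. Of 20 NF-kB genes TNFAIP3 was positive and CCL3, CXCL10 and IER3, an early response gene, were negative (IER3 at -0.54 ± 0.13 (adjusted p = 0.00682)), with a median of -0.01. Of 11 genes of the MYC and MAX network, MXD4, an antagonist of MYC, was positive at 1.06 ± 0.15 (adjusted p = 4.96e-05) and MXD3, which is expressed in dividing cells, negative at -0.76 ± 0.21 (adjusted p = 0.0165). The MXD3 call was lost without MM1R untreated replicate 2 (adjusted p = 0.0527) or MM1S untreated replicate 1 (0.0526). MYC itself differed by 0.14. Of 22 genes of ribosome biogenesis NOP56 alone passed, close to the threshold. Of 19 p53 targets 5 were positive and none negative, namely SESN1, TP53INP1 (0.94 ± 0.15), XPC (0.70 ± 0.15), BTG1 (0.78 ± 0.12) and TP53I3 (0.64), whereas MDM2, the ubiquitin ligase of p53, and CDKN1A did not pass at -0.67 and -0.55. Of 13 adhesion genes ICAM3 was positive at 0.85 ± 0.13 (adjusted p = 1.22e-04), and of 11 clock genes CRY2, a repressor of the clock, was positive and close to the threshold. Of 24 lysosome and autophagy genes MAP1LC3B (LC3) at 0.72 ± 0.14 and the protease CTSS at 0.60 ± 0.14 were positive, although CTSS was over background in only 1 of 6 MM1R arrays, so that its change there was not measured, and it changed by 0.43 in MM1S cells. The protease CTSL was negative at -0.76 ± 0.19, which was lost in a fit of all 24 arrays (adjusted p = 0.0759). Since no probe at all passed in MM1R cells, no list could hold a passing member there.

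**Figure D3:**
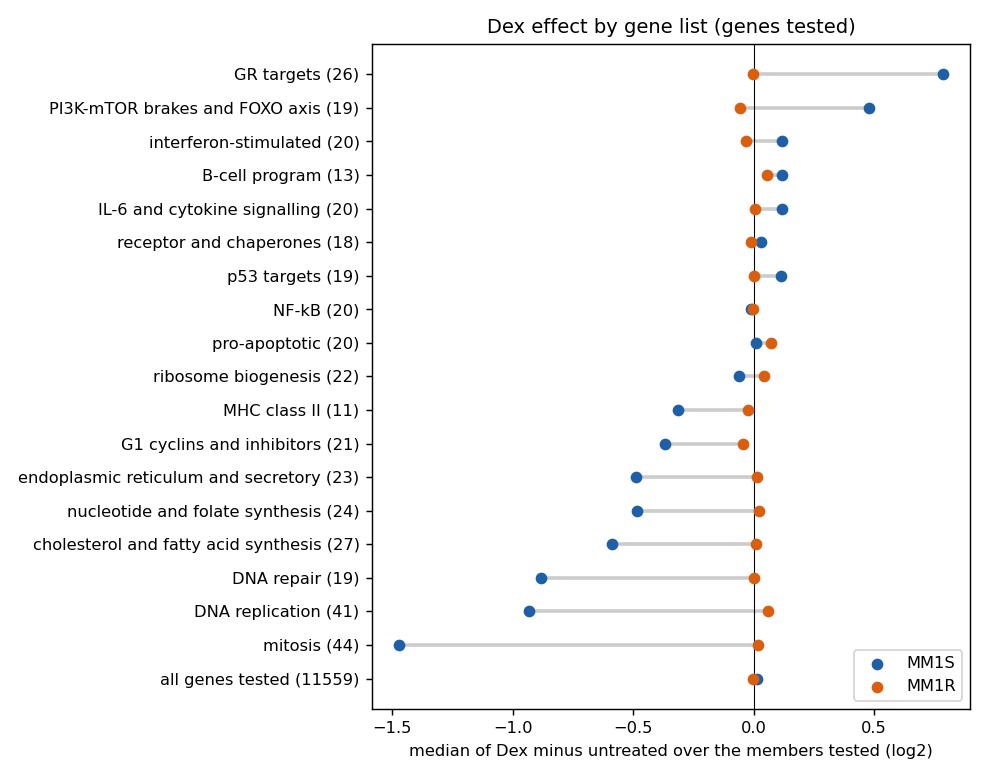
Median change with Dex (x axis, log2, Dex minus untreated) over the tested members of 18 gene lists and over all 11559 genes, in MM1S (blue) and MM1R cells (orange); numbers in brackets are genes tested. The MM1S medians run from 0.79 for GR targets to -1.47 for mitosis, while the MM1R medians stay near 0.

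Some large differences belonged to no list. HES6, a transcription cofactor of the Hes family, had the most negative difference of all genes, -2.26 ± 0.23 (adjusted p = 1.50e-06). It read 11.95, 12.01 and 11.90 and 9.19, 9.68 and 10.18 in MM1S cells and 10.90, 10.83 and 10.68 and 10.98, 10.75 and 10.66 in MM1R cells, where the 6 arrays lay between the MM1S groups. TMSB15A, a thymosin that binds actin monomers, differed by -1.85 ± 0.19 (adjusted p = 1.41e-06), and its MM1R arrays read 10.49, 10.41 and 10.03 and 10.42, 10.27 and 10.14, against 10.80, 10.81 and 10.53 in untreated and 8.60, 8.92 and 8.98 in Dex-treated MM1S cells.

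Where the MM1R cells stood relative to the MM1S groups varied from gene to gene, and this was described without a test, since the same arrays set the difference. For 326 of the 353 genes past both thresholds the mean of the 6 MM1R arrays lay nearer to the untreated MM1S level or beyond it, and for 27 it lay nearer to the Dex-treated level or beyond it, while over all 11559 genes the former held for 7483. At the median it lay 11.9% of the way from the untreated to the Dex-treated MM1S level, against 17.97% over all genes. The untreated lines differed by more than 2-fold in 9 of the 353 genes, and 79 of all 11559 did so. Untreated MM1R cells were lower than untreated MM1S cells in 195 of the 235 genes with a negative difference and higher in 81 of the 118 genes with a positive one, while of all genes 5690 were lower and 5869 higher. A high untreated MM1S mean by itself moves a gene towards a negative difference. Besides HLA-DRA and HLA-DPA1, HLA-DRB4, another HLA-DR chain, stood at 8.29 in untreated MM1R cells against 9.47 in untreated and 8.40 in Dex-treated MM1S cells. S100A9, a calcium-binding protein of myeloid cells, stood at 8.65 in untreated MM1R cells and at 7.14 and 8.20 in MM1S cells. CREB3L2, an ER-bound transcription factor, stood at 11.94 against 10.87 and 12.26, and CASP1, which activates IL-1 beta, at 10.24 against 9.48 and 10.75. ADGRG1 (GPR56), an adhesion receptor, was the opposite case, with 8.89 in untreated MM1R cells and 9.94 and 11.09 in MM1S cells. HLA-DRB4, S100A9, CREB3L2, CASP1 and ADGRG1 were picked after their values had been seen.

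**Figure D4:**
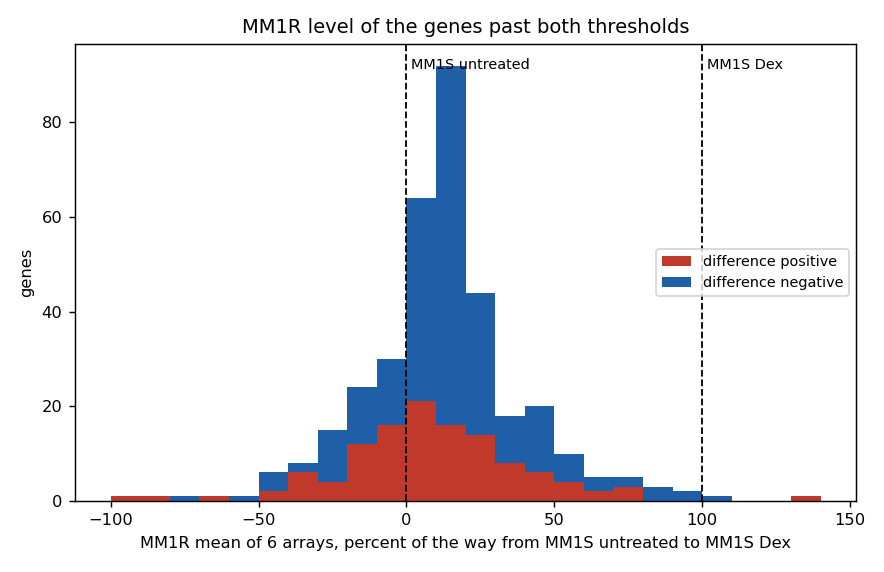
Number of genes (y axis) by the place of the MM1R mean of 6 arrays (x axis), in percent of the way from the untreated (0) to the Dex-treated MM1S level (100), for the 353 genes past both thresholds, stacked by the sign of the difference. Most genes lie near the untreated level, and 27 of the 353 lie past the midpoint.

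In 12 of the 353 genes the MM1R change had an unadjusted p under 0.05, and in none did it pass the adjusted threshold. Over all genes 433 of 11559 had such a p, so the 353 held no larger share. The change opposed that in MM1S cells in all 12 and in 287 of the 433, and the choice of genes by the difference favours that direction. FICD, an enzyme that modifies BiP, read 8.75, 8.74 and 8.88 and 7.92, 7.73 and 7.70 in MM1S cells and 8.41, 8.46 and 8.17 and 9.15, 8.78 and 8.38 in MM1R cells. Its MM1R change was 0.43 (95% confidence interval 0.13 to 0.72) within a difference of -1.44 ± 0.20 (adjusted p = 4.53e-05). GUCY1A1, a subunit of the nitric oxide receptor, read 9.56, 9.59 and 9.03 and 10.34, 9.99 and 9.45 in MM1R cells, a change of 0.53 (interval 0.11 to 0.95), and its difference was -1.24 ± 0.28 (adjusted p = 0.00473). RINL, DFFA, the inhibitor of an apoptotic nuclease, and CCDC15 had MM1R changes of 0.45, 0.40 and 0.32, and differences of -1.12 ± 0.21, -1.004 ± 0.21 and -1.06 ± 0.19. In FICD, GUCY1A1, RINL, DFFA and CCDC15 the highest MM1R value was that of Dex replicate 1. Other probes of GUCY1A1, CCDC15 and DFFA did not pass (adjusted p = 0.203, 0.449 and 0.0794 to 0.349). PCMTD1 went the other way, with an MM1R change of -0.27 and a difference of 1.01 ± 0.16 (adjusted p = 1.94e-04).

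Not every strong response of MM1S cells gave a difference past the adjusted threshold, which does not show that the lines responded alike. CFLAR (FLIP), which blocks caspase 8, rose by 1.01 in MM1S cells, but its difference was 0.88 ± 0.30 (adjusted p = 0.0528). It read 9.77, 9.73 and 9.90 in untreated and 10.72, 9.61 and 9.46 in Dex-treated MM1R cells, so that 1 Dex array reached the level of Dex-treated MM1S cells (11.03, 10.63 and 10.64). Without MM1R Dex replicate 1 the adjusted p was 2.12e-05. FOS, an immediate early gene, rose by 1.03 in MM1S cells and differed by 1.09 ± 0.49 (adjusted p = 0.159). Its Dex-treated MM1S arrays read 9.03, 9.11 and 6.92, and without MM1S Dex replicate 3 the difference was 1.81 (adjusted p = 9.43e-06). EBP, a sterol isomerase, and SYT11, of membrane traffic, did pass, at -0.84 ± 0.22 (adjusted p = 0.0126) and 1.16 ± 0.28 (adjusted p = 0.00767), with the EBP call lost in a fit of all 24 arrays (adjusted p = 0.0510).

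Calls close to the threshold turned on single arrays in a group of named genes. ATM differed by 0.55 ± 0.17 (adjusted p = 0.0370), and leaving out 1 array ended the call for 6 of the 12 arrays, with an adjusted p of 0.0703 to 0.119. CRY2, at 0.54 ± 0.16 (adjusted p = 0.0276), was lost without any 1 of 6 arrays (0.0560 to 0.0803), and HLA-B, at -0.58 ± 0.17 (adjusted p = 0.0238), without any 1 of 6 (0.0546 to 0.0718). HSP90AA1, at -0.54 ± 0.16 (adjusted p = 0.0240), was lost without any 1 of 5 arrays (0.0565 to 0.0800). CXCL10, at -0.88 ± 0.25 (adjusted p = 0.0215), and JCHAIN, at -0.39 ± 0.11 (adjusted p = 0.0199), were lost without any 1 of 4 arrays (0.0557 to 0.0700 and 0.0517 to 0.0644). HLA-DOB, at 0.75 ± 0.21 (adjusted p = 0.0211), was lost without MM1S untreated replicate 3, MM1S Dex replicate 1 or MM1S Dex replicate 2 (0.0592 to 0.0641). NOP56, at -0.52 ± 0.15 (adjusted p = 0.0237), was lost without any 1 of 3 arrays (0.0558 to 0.0756). STAT3, at 0.49 ± 0.16 (adjusted p = 0.0452), was lost without any 1 of 8 arrays (0.0504 to 0.124), and IL2RG, at 0.47 ± 0.16 (adjusted p = 0.0490), without any 1 of 9 (0.0559 to 0.133). With median centring of the arrays JCHAIN, NOP56, HSP90AA1 and HLA-B were lost as well (adjusted p = 0.313, 0.138, 0.110 and 0.0607). In a fit of all 24 arrays ATM, HLA-B, HLA-DOB, HSP90AA1, JCHAIN, NOP56, STAT3 and IL2RG were lost (adjusted p = 0.0702, 0.199, 0.104, 0.0853, 0.0626, 0.126, 0.0573 and 0.106). After background correction STAT3 and IL2RG were lost (0.0559 and 0.0653), and without a filter on dim probes these and ATM (0.0853, 0.0636 and 0.0743). Other probes did not pass for NOP56 (-0.19 and -0.01), HSP90AA1 (-0.33) and STAT3 (0.25 and 0.19), whereas that of ATM did (0.65, adjusted p = 0.0201).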

How the data were processed

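RNA of untreated and Dex-treated MM1S and MM1R cells was hybridised to Illumina bead arrays. Intensities were summarised by the authors with beadarray 2.8.1, and the log2 values used here are the deposited ones that the authors had quantile normalized over all 24 arrays. A second deposited table holds log2 values before normalization, and beside each a detection p-value given by the authors, whose method is not given in the sources used here. No background step is stated, and none was used. Per the submitters' notes their own tests used limma 3.14.1. The precision rests on 3 arrays per group and on the signal over background. A quantile normalization repeated here from the unnormalized table, added after seeing the data, differed from the deposited values by a median of 0.000138 log2 units and by at most 0.129.

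The array holds 47224 probes. A missing value excluded 4 of them, and 30107 have 1 gene symbol in the platform annotation, 8 have several and 17109 have none. The last 2 kinds entered the fit but no count of genes. Probes over background (detection p-value under 0.05) in 3 or more of the 12 arrays were fitted as 4 group means with limma 3.58.1 (lmFit, and eBayes with a trend) in R 4.3.3, with Benjamini-Hochberg adjustment over all of these probes. The groups shared 1 estimate of the spread. Calls of genes required a change of over 2-fold and an adjusted p under 0.05 in 1 probe or more, while list members were counted by the adjusted p of their brightest probe alone. The contrast was tested on simulated data with known changes. Where a group lay below background on all arrays, a fold is a lower bound against the lowest signal over background.

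The genes named were the 12 most positive and 12 most negative called genes whose MM1S arrays did not overlap, the 4 list members of smallest adjusted p in each list and at most 2 of the opposite sign, 6 genes with the largest part from MM1R cells, 6 genes called in MM1S cells whose difference had the largest adjusted p, and NR3C1, NR3C2 and FKBP5. Further list members were picked with their values known, as examples that did not pass or to complete a count. The members, lists and tests were chosen with earlier results of these data known. Promoters came from RefSeq tables on GRCh38.p14, which held 9274 of the 11559 genes tested. Replicate numbers of the untreated MM1R arrays differ between the submitters' titles and descriptions, and the titles were used. Plots were made in Python 3.11.15 (matplotlib 3.10.9). Alternatives covered background correction, normalization, filter, samples in the fit, array weights, trend, replicate block, thresholds, probe and each array left out. The transfection arrays entered only the normalization and the fit of all 24 arrays.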

Additional observations from a re-analysis of the deposited data

Results flagged for a closer look

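The Dex effect differed between the lines by the test of the difference itself for 130 genes in the positive and 262 in the negative direction, past an adjusted p under 0.05 and 2-fold. The named genes past both thresholds at their brightest probe are given here by their log2 difference. The most positive log2 differences were those of DDIT4 (5.63), TSC22D3 (3.70), FKBP5 (3.38), FBXO32 (3.10), ZC3H12A (2.79), LY86 (2.69), BCL6 (2.52), P4HA1 (2.49), CXCL13 (2.18), TGFBR2 (2.13), CXCR4 (2.10) and PIK3IP1 (2.10). Further positive differences were those of BMF (1.65), BACH2 (1.56), SESN1 (1.52), IL6ST (1.46), DUSP1 (1.42), SYT11 (1.16), ISG20 (1.11), MAF (1.09), IFI44 (1.08), CCND3 (1.06), MXD4 (1.06), PCMTD1 (1.01) and IRF9 (1.01). The most negative differences were those of HES6 (-2.26), HMMR (-1.99), RRM2 (-1.97), INSIG1 (-1.94), PBK (-1.92), SCD (-1.89), SREBF1 (-1.87), PHGDH (-1.87), MELK (-1.86), TMSB15A (-1.85), CDC20 (-1.84), BIRC5 (-1.84) and MCM4 (-1.83). Next came CCNB2 (-1.79), CDC45 (-1.74), GINS2 (-1.60), CHEK1 (-1.55), EXO1 (-1.55), RRM1 (-1.49), FANCI (-1.48), MCM10 (-1.47), TYMS (-1.46), FICD (-1.44), POLQ (-1.28), PSAT1 (-1.28) and GGH (-1.27). Smaller negative ones were those of E2F2 (-1.26), GUCY1A1 (-1.24), HLA-DMA (-1.16), RINL (-1.12), CCNE1 (-1.11), HMGCS1 (-1.11), HLA-DPA1 (-1.07), CCDC15 (-1.06), ATF3 (-1.06), PECAM1 (-1.02), HLA-DRA (-1.01) and DFFA (-1.004).

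Probes that the annotation ties to no single gene symbol entered no count of genes. Of 6036 such probes tested, 20 had a positive and 36 a negative difference past both thresholds, 18 rose and 26 fell in MM1S cells, while the MM1R arm gave none by limma (0.928 was the lowest adjusted p over all probes, and 957 of all 21486 probes had an unadjusted p under 0.05). With 3 arrays per group no single array was tested against its group.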

How the results depend on the processing

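After a normexp background correction with an offset of 16 the difference counted 500 positive and 629 negative genes, and MM1S cells 384 genes up and 542 down. Without a minimum fold change these were 1115, 1117, 1790 and 1671, and over 1.5-fold 565, 734, 479 and 637. Leaving out 1 array each gave 120 to 164 positive and 232 to 288 negative differences, 104 to 140 genes up and 198 to 264 down in MM1S cells, and 0 in MM1R cells. Median centring gave 165 positive and 189 negative differences (46.6% positive, against 33.2% in the report and 44.3% after background correction), and all 189 were among the 262. The deposited normalized values served as the main values, so the alternative that names them coincides with the report. For untreated and Dex-treated arrays of the same number, the deviations from the group means were correlated over all probes tested. The correlations were 0.076 to 0.224 in MM1S cells. In MM1R cells they were 0.059 to 0.367 with the numbers of the titles and -0.368 to -0.117 with those of the descriptions. Titles and descriptions thus disagreed in MM1R cells, and neither numbering was taken as pairs. With a replicate block by either numbering 130 and 262 genes were called, CFLAR passed (adjusted p = 0.0290 and 0.0355), and STAT3 and IL2RG were lost with the numbers of the descriptions (0.0670 and 0.0678). The direction turned with another probe for BACH2 (-0.0501), BCL2 (-0.19), CREBBP (-0.00905), MCL1 (-0.25) and NR3C1 (0.0138), and the cause was not tested, while a further probe of BACH2 and of BCL2 passed in the reported direction. In the same order, the mean signals of the turned probes were 7.15, 7.56, 7.16, 9.39 and 7.11, where the array median over all probes was 7.07. Other than with another probe, 81 of 111 named genes kept their direction and side of the threshold under all 23 alternatives. NR3C1, BCL6, CXCL13, IL7R and CTSS lay below background in whole groups, which limits them to bounds there.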
